A study of Ambystoma mexicanum with 8 samples.

Results

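The mRNA of regenerating axolotl forelimbs at 6 days post-amputation (dpa) was compared with that at 3 dpa. These are 2 of the 8 libraries of a series that holds 4 mRNA and 4 small RNA libraries, and they were chosen by their labels. The axolotl (Ambystoma mexicanum) is a salamander that regrows an amputated limb. Forelimbs were cut with a scalpel through the middle of the zeugopod (the forearm) under MS222 anesthesia, and neither stage had any other treatment. The study takes 6 dpa as the stage at which the blastema has formed, so the comparison asks how RNA levels differ between the earlier wound stage and that stage. The labels and methods give no age, sex or strain for the axolotls. Each library is a pool of at least 4 tissues, sequenced after polyA+ selection, and there is 1 library per stage, so no difference below has a replicate check and no p-value is given. The matching libraries at 0 dpa and 14 dpa are used only to show where the levels at 3 and 6 dpa lie.

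After amputation, epidermal cells migrate over the stump and form a wound epidermis, leukocytes enter the tissue, and secreted proteases break down extracellular matrix. Cells of the stump are released from their tissues and enter the cell cycle, and they collect under the wound epidermis as the blastema, a mound of progenitor cells. Matrix metalloproteinases, matrix proteins such as fibronectin, and signals of the Fgf, Bmp, Tgf-beta and interleukin families are known for their activity in this phase.

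The library at 3 dpa held 36931886 reads and that at 6 dpa 19049794, so the 3 dpa library was 1.94 times as deep. Levels are given in scaled cpm, read counts scaled to library size (cpm) after TMM scaling, a method that corrects for differences in library composition. Since transcript lengths were not used, levels can be set side by side between stages but not between genes. Of 90099 assembled transcripts, 79816 had at least 10 reads over the 2 libraries and were compared. A transcript is called higher or lower at 6 dpa when its log2 fold change (6 dpa over 3 dpa) is past 0.58 in either direction, which is 1.49-fold. The 95% intervals in brackets are exact Clopper-Pearson intervals that cover counting error only, not the variation between animals, pools or library preparations.

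By this rule 18883 transcripts (23.7%) were higher at 6 dpa and 25965 (32.5%) were lower, and the median log2 fold change was -0.15. The counting interval lay wholly past the cut-off for 6364 of the higher transcripts (7.97% of all compared) and 9873 of the lower ones (12.4%). The split depends on the scaling. When total reads were used in place of TMM, every log2 fold change moved up by 0.30, the median became 0.15, and 26333 transcripts were higher and 18746 lower. The share of calls that were higher was 42.1% under TMM and 58.4% under total reads. The calls below keep the fixed cut-offs around 0, so their numbers change with the scaling. Comparisons of 6 dpa with 0 dpa move by more, since the TMM factors were 0.818 at 0 dpa and 1.157 at 6 dpa. Under total reads a 6 dpa level stands higher against 0 dpa than its scaled cpm shows. List medians can be set against the median of all transcripts, which moves with each scaling in the same way as the genes do.

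The difference was larger among abundant transcripts. The median was -0.08 for the 50843 transcripts with 10 to 100 reads over both libraries, -0.15 for the 21231 with 100 to 1000, -0.27 for the 6946 with 1000 to 10000, and -0.41 for the 796 with at least 10000 reads. In the last class 40.2% were lower at 6 dpa and 7.79% higher. A gene name was available for 2237 of the compared transcripts, whose median was -0.30. Of these, 11.7% were higher and 33.9% lower, so a list of named genes starts below the background of all transcripts.

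**Figure D1:**
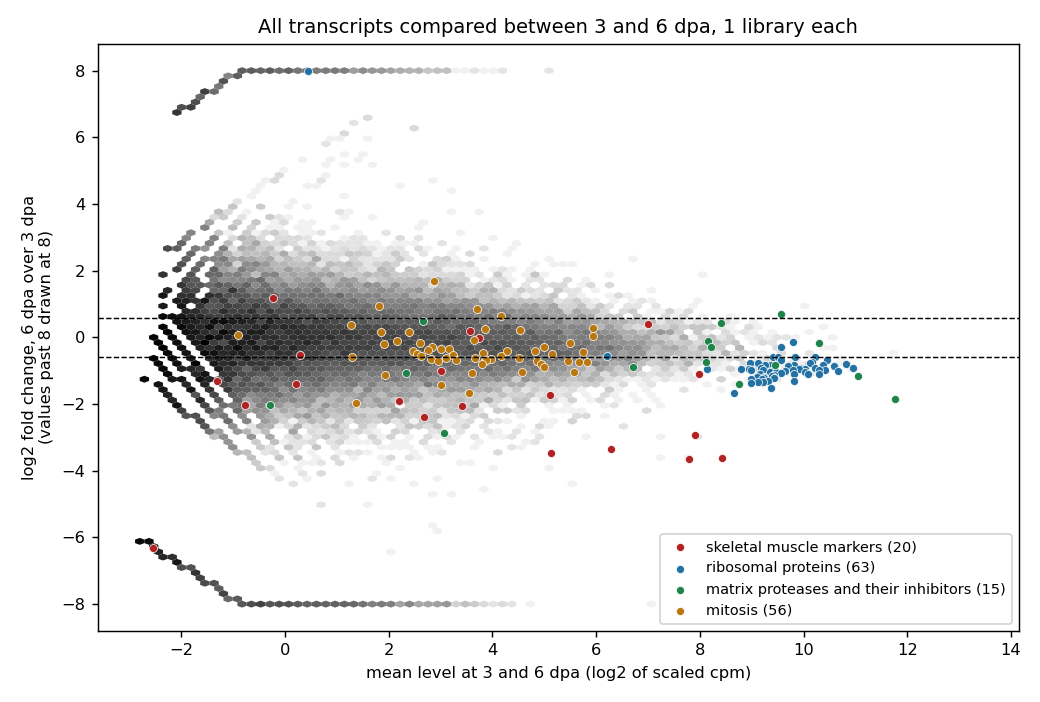
Each compared transcript by its mean level at 3 and 6 dpa (x axis, log2 of scaled cpm) and its log2 fold change, 6 dpa over 3 dpa (y axis, values past 8 drawn at 8); grey shading is the density of transcripts, dashed lines mark the cut-off of 0.58, and coloured points are members of 4 gene lists. Of the 63 ribosomal protein transcripts 58 lie below the lower dashed line, mostly as a compact group at high levels, 4 lie between the lines and 1 above. Several of the 20 skeletal muscle markers lie below -2.

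Genes were grouped in 26 lists by their known roles. The names are zebrafish symbols, other vertebrate symbols or best protein hits, and many come from the study's tables of genes higher or lower at 6 dpa than at 0 dpa. Those tables share the 6 dpa library with the present comparison, so their members are not an independent sample of either direction. The counts of each list below are to be set beside the 33.9% lower and 11.7% higher of all named transcripts. These shares differ by the source of the name. Of transcripts named only from the table of genes lower at 6 dpa, 43.6% were lower and 10.5% higher. Of those named only from the table of genes higher at 6 dpa, 24.3% were lower and 15.4% higher. The median was below that of all transcripts in 22 of the 26 lists. The lists that lay lowest were the skeletal muscle markers (-1.82), the ribosomal proteins (-0.97), the immediate-early and stress list (-0.85) and the ligands (-0.85). The epidermal (0.08), nerve (-0.08), leukocyte (-0.09) and erythrocyte (-0.13) markers were the lists not below the median of all transcripts. Against the median of all named transcripts (-0.30), the receptors (-0.29) and translation factors (-0.26) were not below either.

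**Figure D2:**
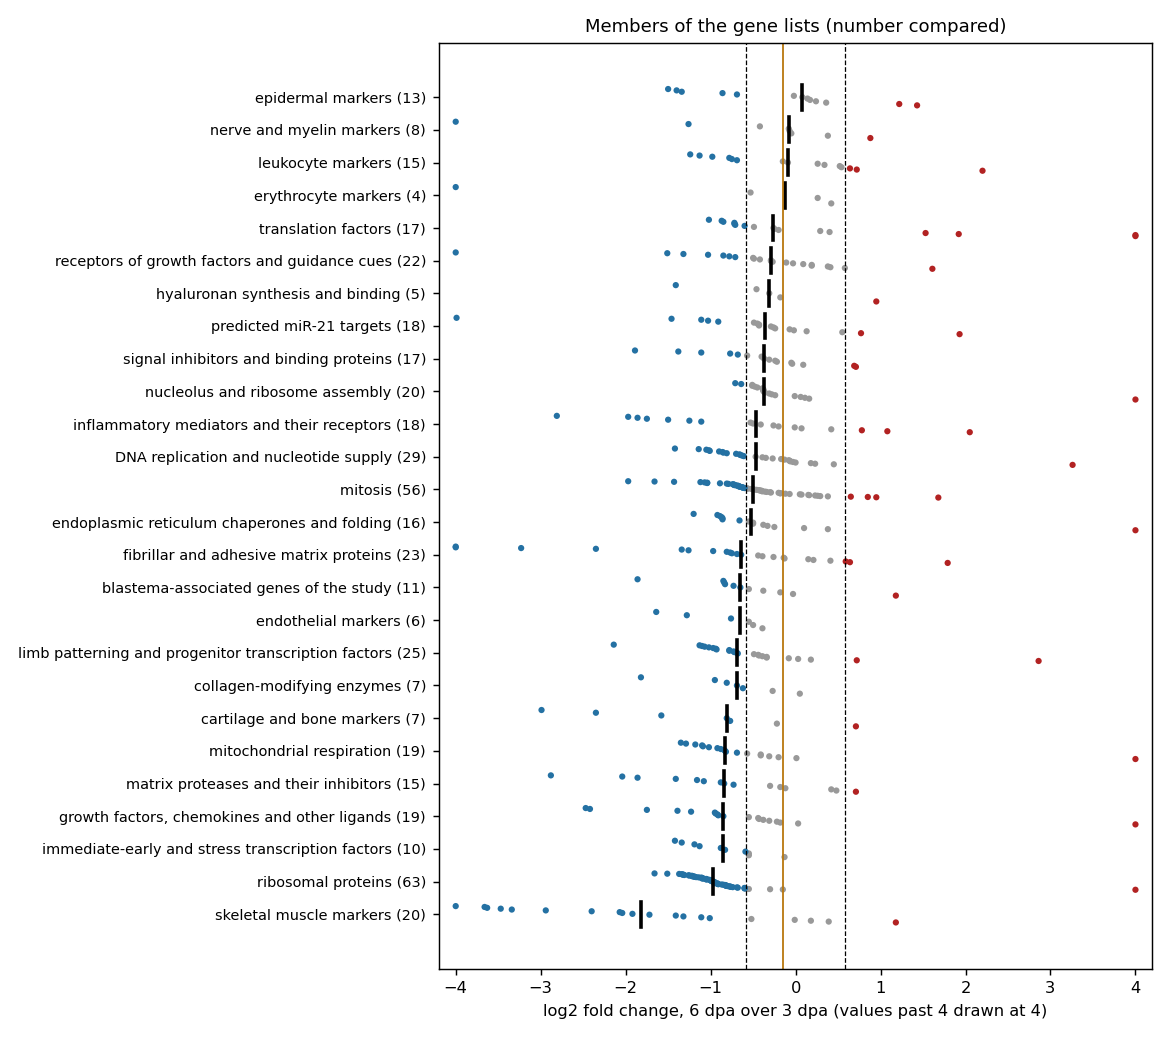
Log2 fold change, 6 dpa over 3 dpa, of each member of the 26 gene lists (x axis, values past 4 drawn at 4), with the number compared in brackets; blue points are lower, red points higher and grey points between the dashed cut-offs. Black bars are list medians and the orange line is the median of all transcripts, -0.15; the skeletal muscle median of -1.82 lies farthest to the left.

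The study's own list of blastema-associated genes was described first. Of its 11 members 6 were lower at 6 dpa, 1 was higher and 4 lay between the cut-offs, with a median of -0.65. Under total reads only 1 was lower and 1 higher, so the calls of this list depend on the scaling. The list was compiled by the study with these libraries in hand and is not independent evidence of a direction. The primer pairs of mmp9, junb, ttk, cxcl12 and fgf20 used for quantitative PCR in the study are shown here, since they identify the amplified targets; the PCR values were not used.
mmp9 forward: cacttctgtgcttgcagtttag
mmp9 reverse: ggcataaggcataagggaaga
junb forward: aagtgggcaaaggacagatag
junb reverse: gtcgttgcagcagaacaataaa
ttk forward: accaatgtgtggaacggatag
ttk reverse: tggaaggtgtaaggacatttctc
cxcl12 forward: gcctacatcttcgccttctt
cxcl12 reverse: gctaactgctccctccaaat
fgf20 forward: gtttaatgcggtgggttcttatt
fgf20 reverse: catccaagcctccatcataca

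Mmp9, a gelatinase that cleaves denatured collagen and basement membrane, was at 18.6, 5456, 1508 and 17.5 scaled cpm at 0, 3, 6 and 14 dpa. It was 3.62-fold lower at 6 dpa than at 3 dpa, -1.86 on the log2 scale (-1.87 to -1.84), and at both stages it stood far above the uninjured and the late library. Junb, a subunit of the AP-1 transcription factor that is induced early after injury, was at 418 scaled cpm at 3 dpa and 236 at 6 dpa (-0.83, -0.87 to -0.78), against 27.8 at 0 dpa and 54.1 at 14 dpa. Mmp14, a membrane-bound collagenase, was at 898 and 502 (-0.84, -0.87 to -0.81). Its inhibitor partner timp2 was at 348 and 209.7 (-0.73, -0.78 to -0.68). Protease and inhibitor were thus both lower at 6 dpa, by similar factors.

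Ttk, the kinase of the spindle checkpoint, was at 19.2 scaled cpm at 3 dpa and 12.3 at 6 dpa (-0.65, -0.86 to -0.44), and 28.3 at 14 dpa. Hspd1, the mitochondrial chaperonin, was at 331 and 226 (-0.55, -0.60 to -0.51), just inside the cut-off. Fgf20, a growth factor required for blastema formation in zebrafish fins, had only 105 and 51 reads, and its interval of -0.90 to 0.11 around -0.38 includes 0. The insulin-like growth factor igf2b (-0.18, -0.35 to -0.01) and the receptor tyrosine kinase erbb2 (-0.03, -0.13 to 0.07) lay close to the median of all transcripts. These 4 genes were not called in either direction, hspd1 included.

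For 2 members the transcript that stands for the gene does not speak for its whole component, the set of transcripts that the assembler grouped as one gene. The transcript of smarca4, the ATPase of the BAF chromatin remodelling complex, had 740 reads at 3 dpa and 1062 at 6 dpa (1.18, 1.04 to 1.32) and was the only higher member. The other 3 transcripts of its component went from 1257 to 479, from 1069 to 42 and from 625 to 93 reads, and the summed component had a log2 fold change of -0.48. The transcript of the chemokine cxcl12 had 117 and 41 reads (-0.85, -1.40 to -0.33). Another transcript of that component had 436 reads at 3 dpa and 0 at 6 dpa, and the third had 0 and 126, with a component value of -1.07. When the reads of the transcripts paired with cxcl12 alone were added, the value was 1.17. The direction for these 2 genes therefore depends on which transcripts are counted.

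Of the 15 matrix proteases and their inhibitors, 9 were lower at 6 dpa and 1 was higher, with a median of -0.84; under total reads 7 were lower and 3 higher. Both collagenase genes were at least 10-fold above their 0 dpa level at the 2 stages. Mmp13b had 26.1, 2935, 1311 and 26.5 scaled cpm at 0, 3, 6 and 14 dpa, a log2 fold change of -1.16 (-1.18 to -1.14) from 3 to 6 dpa. Mmp13a had 9.94, 631, 238 and 4.70 scaled cpm at the same stages (-1.41, -1.45 to -1.36). Cst3, the cysteine protease inhibitor cystatin C, had 512 reads at 3 dpa and 44 at 6 dpa (-2.88, -3.36 to -2.44), but its component of 2 transcripts summed to -0.23. MMP28 (237 and 71 reads, -1.08) and adamts15b (46 and 7 reads, -2.04) were low in both libraries. Summed over the list, the level was 1350.0, 13249.8, 6891 and 1243 scaled cpm at 0, 3, 6 and 14 dpa, so the 6 dpa tissue still carried more protease mRNA than the uninjured limb. Of the 15 members, 11 were highest at 3 dpa among the 4 stages, against 30.5% of all transcripts.

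Of the 23 fibrillar and adhesive matrix proteins, 12 were lower and 3 higher, with a median of -0.64. Under total reads 7 were lower and 4 higher. The lower ones include transcripts with few reads, col1a1a (31 and 2), col1a2 (17 and 0) and podn (20 and 0). Among the higher ones, col16a1 (0.64) belongs to a component of 38 transcripts that gave -0.62. Fn1, fibronectin, the adhesive protein of provisional wound matrix, had 619, 4212, 2699.9 and 492 scaled cpm at 0, 3, 6 and 14 dpa (-0.64, -0.66 to -0.63). Thbs1b, a thrombospondin that binds matrix and latent Tgf-beta, had 847 scaled cpm at 3 dpa and 333 at 6 dpa (-1.34, -1.38 to -1.31). Col2a1b, named for the fibrillar collagen of cartilage, had the most reads of the list, 339057 and 122870 (-0.81, -0.82 to -0.80). Hmcn1, hemicentin, a large basement membrane protein, had 515 and 166 reads (-0.97), and srpx2, a sushi-repeat protein, had 707 and 187 (-1.26, with -0.63 for its component of 4 transcripts).

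Postnb, periostin, a matricellular protein made by fibroblasts and periosteum, ran the other way. It had 550.0, 160.1, 555 and 842 scaled cpm at 0, 3, 6 and 14 dpa. The 3 dpa library was thus the lowest of the 4, and under TMM the level at 6 dpa was back at that of the uninjured limb. Under total reads the 6 dpa level was above that of the uninjured limb. Its log2 fold change was 1.79 (1.75 to 1.84), a 3.47-fold difference, and its component of 4 transcripts gave 1.24.

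Of 7 genes listed for collagen modification, 5 were lower and none higher, with a median of -0.69, and 2 were lower under total reads. Serpinh1b, the collagen chaperone Hsp47, had 243 scaled cpm at 3 dpa and 68.7 at 6 dpa (-1.82, -1.90 to -1.74), and its component of 8 transcripts gave -2.43. Lox, the oxidase that crosslinks collagen and elastin, had 42.0, 265, 137 and 13.0 scaled cpm from 0 to 14 dpa (-0.95, -1.01 to -0.89). The prolyl hydroxylase subunit p4ha3 (-0.81), the procollagen protease bmp1a (-0.69) and the prolyl isomerase fkbp14 (-0.62) were lower by less. Chst14, a sulfotransferase of dermatan sulfate rather than of collagen, was not called (-0.27). For p4ha3 and bmp1a the component values, -0.19 and -0.35, lay inside the cut-off. Another 5 genes were listed for hyaluronan, the large wound polysaccharide, although sulf1 encodes a sulfatase of heparan sulfate. The synthase has1 was lower (1141 and 271 reads, -1.41). Has2 (-0.46), ugdh (-0.31), the precursor enzyme, and sulf1 (-0.18) were not called. Hmmr, also a spindle protein, was higher by its transcript (84 and 103 reads, 0.95) but not by its component (-0.19).

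Among 19 growth factors, chemokines and other ligands 10 were lower, 1 was higher and the median was -0.85; under total reads 9 were lower. Il11a, a cytokine of the interleukin-6 family, had no reads at 0 dpa, 5829 at 3 dpa, 1098 at 6 dpa and a level of 0.528 scaled cpm at 14 dpa. Its level was 168 scaled cpm at 3 dpa and 49.8 at 6 dpa, 3.36-fold lower (-1.75, -1.84 to -1.66). Its transcript was thus found almost only at the 2 stages compared. Stc1, stanniocalcin, a secreted glycoprotein of calcium and phosphate handling, had 428 reads at 3 dpa and 49 at 6 dpa (-2.47, -2.93 to -2.04). Inhbab, a subunit of activin, a ligand of the Tgf-beta family, had 23.7 and 9.03 scaled cpm (-1.39, -1.62 to -1.17), and bmp2, a bone morphogenetic protein, had 23.4 and 9.98 (-1.23, -1.45 to -1.01). The Notch ligands dlc (127 and 15 reads, -2.42) and jag2b (906 and 296 reads, -0.95) were also lower. Manf, a secreted factor of the endoplasmic reticulum, lay just inside the cut-off (-0.55).

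Among 22 receptors 7 were lower, 1 was higher and 14 lay between, with a median of -0.29. The 7 lower receptors are about the share found in all transcripts (32.5%), and under total reads 4 were lower, 4 higher and the median was 0.00. The values of single receptors follow as a description. Il6st, the gp130 subunit through which interleukin-6 family cytokines including interleukin 11 signal, had 63.0 scaled cpm at 3 dpa and 25.2 at 6 dpa (-1.32, -1.46 to -1.18; component -0.70). Tgfbr2, the ligand-binding Tgf-beta receptor, had 53.6 and 26.3 (-1.03, -1.16 to -0.89). The axon guidance receptor robo3 (332 and 74 reads, -1.51), the orphan receptor kinase ror1 (94 and 33 reads, -0.85), smo, which transduces Hedgehog (1215 and 449 reads, -0.78), and ptk7a, a receptor of planar polarity (4972 and 1920 reads, -0.71), were lower too. Erbb3, the partner of erbb2 in neuregulin signalling, was not called (0.38, 0.23 to 0.53). The higher member, the semaphorin receptor plxna3 (175 and 339 reads, 1.61), belongs to a component whose main transcript had 866 and 186 reads and whose sum gave -0.32.

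Of 17 signal inhibitors and binding proteins, 5 were lower and 2 higher, with a median of -0.37. These counts are no larger a share than the 33.9% lower and 11.7% higher of all named transcripts, and under total reads 3 were lower. The Sprouty genes encode feedback inhibitors of Fgf receptor signalling. Spry4 had 170 reads at 3 dpa and 29 at 6 dpa (-1.89, -2.51 to -1.32), and spry2 had 1241 and 363 (-1.11, -1.29 to -0.94). Igfbp2a, a binding protein of insulin-like growth factors, was lower (2928 and 1089 reads, -0.77). The Wnt inhibitor wif1 had 48 and 19 reads, and its interval of -1.53 to 0.12 around -0.68 includes 0. Frzb, a secreted Wnt antagonist of cartilage, had 51 and 53 reads (0.71, 0.13 to 1.30). Igfbp5b was higher by its transcript (0.69) and not by its component of 16 transcripts (-0.34).

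All 10 compared members of the immediate-early and stress list were at their highest at 3 dpa among the 4 libraries, against 30.5% of all transcripts. Besides transcription factors the list holds the chaperonin hspd1, whose peak was small (331 scaled cpm at 3 dpa, 318 at 14 dpa). The peak of jun was small too (44.4 scaled cpm at 3 dpa, 43.9 at 14 dpa). Under total reads 7 of the 10 were highest at 3 dpa. From 3 to 6 dpa 7 were lower (4 under total reads) and none higher, with a median of -0.85. Hif1ab, the oxygen-sensing transcription factor, had 25.6, 84.5, 37.1 and 35.1 scaled cpm from 0 to 14 dpa (-1.19, -1.30 to -1.07). Mycb, a Myc family regulator of growth, had 32.0, 59.0, 27.0 and 22.3 (-1.13). Under TMM both were at 6 dpa back within about 1.5-fold of the uninjured level, whereas junb was still well above it. Under total reads hif1ab and mycb stand higher against 0 dpa. Klf2b (-1.42), maf (-1.34) and jun (-0.88) were also lower, the last with 44.4 and 24.2 scaled cpm.

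Of 18 inflammatory mediators and receptors 7 were lower and 3 higher, with a median of -0.46. Among all named transcripts 33.9% were lower and 11.7% higher. Under total reads 7 of the 18 were lower and 4 higher. Ptgs2b, the inducible cyclooxygenase of prostaglandin synthesis, had 12.9, 105, 27.0 and 22.4 scaled cpm at 0, 3, 6 and 14 dpa (-1.97, -2.09 to -1.84). Ptges, the prostaglandin E synthase that acts after it, had 625 and 140 reads (-1.50, -1.77 to -1.23). The complement gene c3a was lower by its transcript (-1.86) and less so by its component (-0.50). The formyl peptide receptor fpr1, found on neutrophils and macrophages, was higher, with 140 and 368 reads (2.05, 1.77 to 2.34; component 1.06), and so was the toll-like receptor tlr18, with 140 and 187 reads (1.08, 0.75 to 1.40; component 0.84).

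Of the 15 leukocyte markers compared, 6 were lower and 3 higher, beside 33.9% and 11.7% of all named transcripts. The median of -0.09 was close to that of all transcripts, and under total reads 3 markers were lower and 6 higher. Spi1b is the PU.1 transcription factor of myeloid cells. The transcript that stands for it had 0 reads at 0 dpa and 85.1, 35.9 and 4.99 scaled cpm at 3, 6 and 14 dpa (-1.24, -1.36 to -1.13). It is 1 of 11 transcripts of its component, which gave -0.80, so its 0 reads do not speak for the whole component. Csf1ra, the macrophage colony-stimulating factor receptor, had 49.4, 472, 293 and 34.8 scaled cpm (-0.69, -0.73 to -0.65). LSP1, an actin-binding leukocyte protein (-0.78), cd74a, the invariant chain of MHC class II (-0.75), havcr1 (-1.13) and SIGLEC15 (-0.98, component -0.27) were lower as well. Ikzf1, the Ikaros factor of lymphocytes, was higher, with 104 and 304 reads (2.20, 1.88 to 2.54, component 1.20). Summed over the 4 transcripts paired with ikzf1 the value was 0.48, inside the cut-off. The summed level of the list was 1138 scaled cpm at 3 dpa and 804 at 6 dpa. In pooled tissue, fewer cells of a type and less RNA per cell cannot be told apart, here and in the cell type lists that follow.

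Skeletal muscle markers showed the lowest list median. Of 25 names, 20 were compared, and 15 of these were lower and 1 higher, with a median of -1.82 (-1.56 with counts under 3 reads in either library raised to 3 reads). The 5 not compared had under 10 reads over the 2 libraries. The summed level was 13361, 2266, 523 and 280.2 scaled cpm at 0, 3, 6 and 14 dpa. Most of the loss from the uninjured level thus lay before 3 dpa, with a further log2 difference of -2.12 from 3 to 6 dpa.

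Several contractile and calcium-buffering proteins of muscle were lower by more than 10-fold. The best hit to myosin light chain 1 (MLE1_CHICK) had 3285, 412, 32.6 and 0.767 scaled cpm at 0, 3, 6 and 14 dpa, 12.6-fold lower from 3 to 6 dpa (-3.66, -3.77 to -3.55). Parvalbumin (PRVB_AMPME) had 2629, 637, 51.6 and 0.288 scaled cpm, 12.4-fold lower (-3.63, -3.72 to -3.54). Tnnt1, slow troponin T, had 508, 142, 14.0 and 1.68 scaled cpm (-3.34, -3.51 to -3.17). Each of these was lower at every later stage, as were 14 of the 20 markers, against 6.03% of all transcripts. Neb, the thin filament protein nebulin, gave -3.47, though its component of 27 transcripts gave -1.75. Smpx, a small muscle protein, had 375 and 45 reads (-2.40, -2.88 to -1.95). The only higher marker, MYH4_MOUSE, had 18 and 26 reads. The part of the muscle markers in other differences between the libraries was not tested.

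Of 7 cartilage and bone markers 5 were lower (3 under total reads) and 1 higher. The lower ones include col2a1b, which had 3086, 9746, 5576 and 2343 scaled cpm from 0 to 14 dpa. Col9a3 (618, 42.4, 24.9 and 76.2) and chad (44.7, 1.64, 0.318 and 0.0959) were instead highest at 0 dpa. Whether the col2a1b transcript is the cartilage collagen of the axolotl was not tested. Ifitm5, a membrane protein of osteoblasts, had 0.321, 11.9, 1.50 and 0.192 scaled cpm from 0 to 14 dpa, 7.93-fold lower from 3 to 6 dpa (-2.99, -3.55 to -2.48). Its peak at 3 dpa set it apart from chad, chondroadherin of cartilage, which had 557 reads at 0 dpa, 57 at 3 dpa and 7 at 6 dpa (-2.35, -3.74 to -1.23). Alpl, the alkaline phosphatase of mineralizing cells, had 208 and 44 reads (-1.58), and the cartilage collagen col9a3 had 1476 and 548 (-0.77).

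The epidermal list did not move as one group. Of 17 names 13 were compared, with 5 lower, 2 higher and a median of 0.08, beside 33.9% lower and 11.7% higher of all named transcripts. The 4 others of the list, krt15, cldnb, evpla and esrp2, had 0 reads in both libraries. Itgb4, the integrin subunit of hemidesmosomes, had 161, 199, 70.4 and 69.6 scaled cpm from 0 to 14 dpa (-1.50, -1.58 to -1.42), and the integrin subunit itga3b was also lower (-0.86, component -1.49). The tight junction claudin cldni had 88.5 scaled cpm at 3 dpa and 34.9 at 6 dpa (-1.34, -1.46 to -1.23). Pof1b, an actin-binding protein of epithelia, had 101, 23.4, 62.8 and 71.2 scaled cpm and was higher (1.43, 1.30 to 1.55; component 0.88). Ppl, periplakin of the cornified envelope, had 198 and 254 (0.36). Itgb4, itga3b and cldni were thus lower, while pof1b was higher.

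Keratins differed from one another. The best hit to keratin 17 (K1C17_BOVIN), a keratin of wounded and appendage epithelium, had 6.17, 1345, 1324 and 628 scaled cpm at 0, 3, 6 and 14 dpa, with a log2 fold change of -0.02. Type I cuticular keratins build hair and nail in mammals. The best hit to a type I cuticular keratin (K1H2_HUMAN) had 618, 41.2, 274 and 89.6 scaled cpm at 0, 3, 6 and 14 dpa. Its 6.64-fold difference (2.73, 2.65 to 2.82) was among the 10 largest rises of named genes with at least 100 reads over both libraries, and it is the only transcript of its component. The protein hits give the nearest annotated keratin, not the axolotl gene.

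In the nerve and myelin list 2 of 8 were lower and 1 higher, with a median of -0.08. Of those not called, prx had -0.08 (component -0.66), mbp -0.07 (component -0.41) and the microtubule-binding protein MAP1B -0.05. Among the 4 erythrocyte markers, 1 was lower (tfr1a, described with the largest falls) and none higher. The best hit to hemoglobin alpha (HBA2_TRICR) had 159.9 scaled cpm at 3 dpa and 191 at 6 dpa (0.26, 0.20 to 0.32), and alas2, the erythroid enzyme of heme synthesis, had 21.3 and 14.8 (-0.53). Neither was called. All 6 endothelial markers were below 0, and 3 of them were called lower. Cdh13, a cadherin of vessels and other tissues, had 604 and 157 reads (-1.28, -1.55 to -1.03), and fli1a had 94 and 35 (-0.76, -1.37 to -0.19).

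Of 25 transcription factors of limb patterning and progenitor cells, 14 were lower and 2 higher, with a median of -0.69; under total reads 8 were lower and 2 higher. Hoxa13, which specifies the most distal limb segment, had 5.85, 9.14, 4.27 and 62.6 scaled cpm from 0 to 14 dpa. It was lower at 6 than at 3 dpa (-1.10, -1.45 to -0.76; component -0.54), and the 14 dpa library was far above the other 3. Hoxa10b, another Hox gene of the limb, had 301 and 91 reads in the transcript that stands for it (-1.07, -1.42 to -0.72; component -0.84). That transcript had no reads at 0 dpa, but another of its component had 115 there, and 899 and 366 at 3 and 6 dpa. Snai2, a regulator of cell migration, had 155 and 76.5 scaled cpm (-1.02, -1.10 to -0.94), prdm1a, a transcriptional repressor, had 149 and 78.5 (-0.93, -1.01 to -0.85), and her6, a Notch-responsive Hes family repressor, had 16.0 and 7.31 (-1.13, -1.39 to -0.87). Osr2 had 84 and 12 reads (-2.14). The transcript of tfap2a, an AP-2 factor of ectoderm and neural crest, had 21 and 97 reads (2.86), but the component of 3 transcripts gave -0.02.

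For most genes of cell division the level at 6 dpa was below those of both neighbouring stages. Of 56 mitosis genes 24 were lower than at 3 dpa and 4 higher, with a median of -0.50. Under total reads 8 were lower and 6 higher and the median was -0.20, so the calls depend on the scaling. For 43 of the 56 (76.8%) the level at 6 dpa was below that at 3 dpa and at 14 dpa, a shape found in 30.7% of all transcripts. Under total reads the count was 37 of 56, against 19205 of the 79816 transcripts. Of 29 genes of DNA replication and nucleotide supply, 14 were lower and 1 higher (6 and 2 under total reads) with a median of -0.47, and 24 (82.8%) had the same shape, 17 under total reads. Summed, the mitosis genes had 291, 1179.9, 877 and 1767 scaled cpm at 0, 3, 6 and 14 dpa, and the replication genes 399.7, 1329, 826 and 1834. Both sums were thus above the uninjured level at 6 dpa and highest at 14 dpa.

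Rrm1, the large subunit of ribonucleotide reductase, had 65.1, 280.4, 160.1 and 421 scaled cpm at 0, 3, 6 and 14 dpa (-0.81, -0.86 to -0.75). Its partner rrm2 had 24.1, 149.8, 74.5 and 147 (-1.01, -1.09 to -0.93). The 2 subunits thus shared the drop between 3 and 6 dpa. Mcm5, a subunit of the replicative helicase, had 65.1, 145, 66.0 and 139 scaled cpm (-1.14, -1.23 to -1.06). Its 6 dpa level was thus that of the uninjured limb under TMM, and above it under total reads. The checkpoint kinase chek1 had 33.3 and 16.4 scaled cpm at 3 and 6 dpa (-1.02, -1.19 to -0.85). Nasp, a histone chaperone, had 241 and 129 scaled cpm (-0.90), and orc6, of the origin recognition complex, had 7.36 and 3.54 (-1.05).

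Of 9 members of the mitosis list with a kinesin (motor protein) name, 4 were lower, 1 was higher (kif15, 0.65, 0.47 to 0.84) and 4 lay between. The centromere protein cenpe, also a kinesin, lay between as well (0.16, -0.26 to 0.57). Kif18a, a kinesin that aligns chromosomes, had 1.92, 16.5, 7.90 and 17.7 scaled cpm from 0 to 14 dpa (-1.07, -1.32 to -0.82), and kifc1, a minus-end kinesin of the spindle, had 10.3, 71.2, 42.5 and 90.5 (-0.74, -0.85 to -0.64). Kif2c, a microtubule-depolymerizing kinesin, had 143 and 23 reads (-1.97, -2.68 to -1.34), and kif22 gave -0.72. The centromere protein cenpl (409 and 96 reads, -1.43) and separase, espl1 (182 and 53 reads, -1.12), were lower, while the condensin subunit smc4 was not called (0.05, -0.05 to 0.15). For foxm1, the transcription factor of mitotic genes, one transcript had 623 and 125 reads and the other 149 and 197, and the component gave -0.60. For nusap1, a spindle-associated protein, the transcript that stands for the gene was higher (121 and 246 reads, 1.68), but the other had 1204 and 298 and the component gave -0.63.

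**Figure D3:**
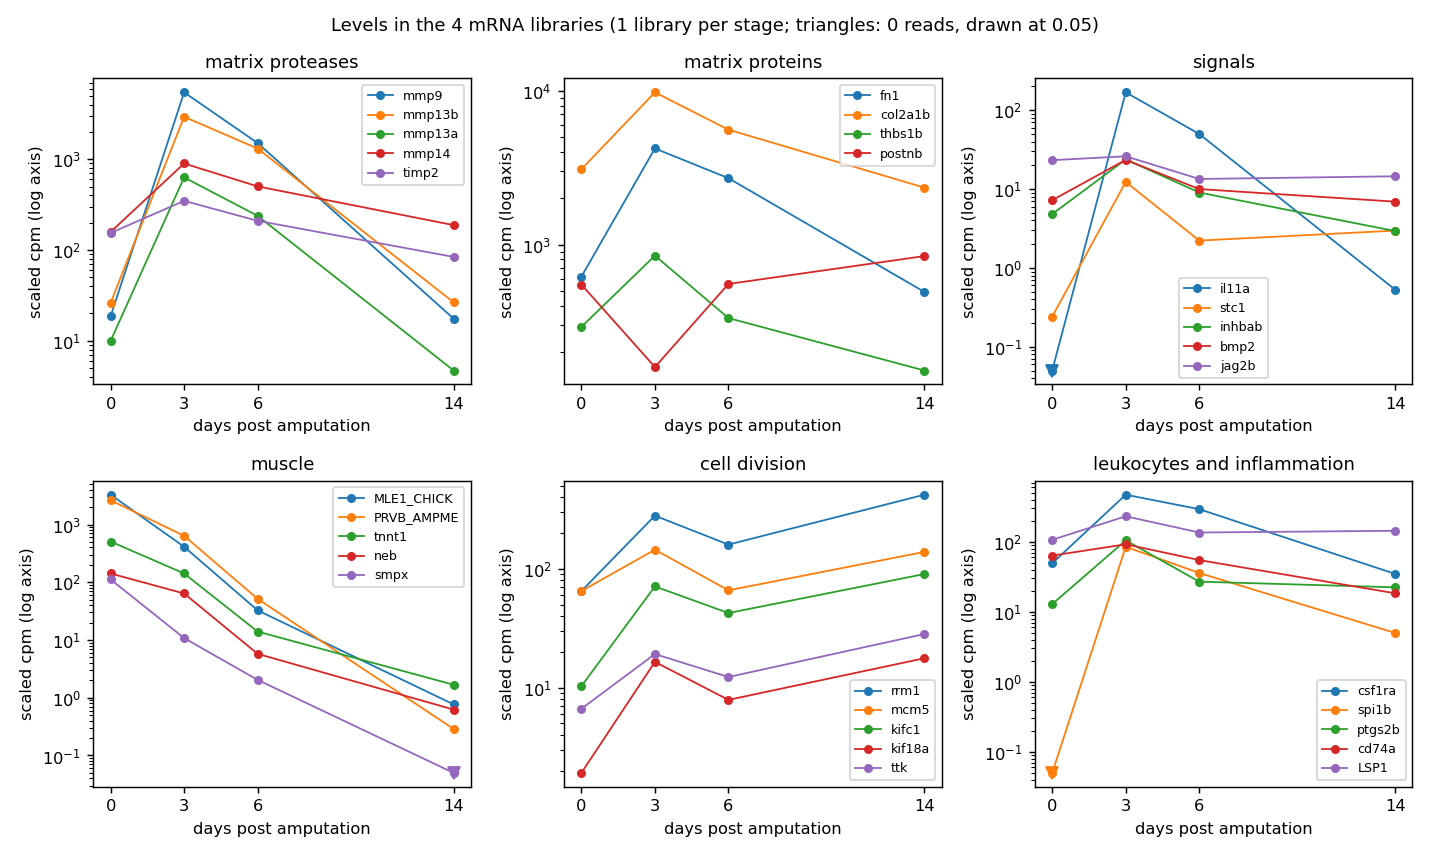
Scaled cpm (y axis, log scale) of named transcripts against days post-amputation (x axis) in the 4 mRNA libraries, 1 library per stage, by group; triangles are 0 reads and are drawn at 0.05. Proteases, matrix proteins other than postnb, and il11a stand highest at 3 dpa, muscle transcripts are lower at each later stage, and the cell division transcripts dip at 6 dpa between higher levels at 3 and 14 dpa, as for rrm1 with 280.4, 160.1 and 421.

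The endoplasmic reticulum folding genes assist proteins of the secretory pathway. Of 16, 7 were lower than at 3 dpa and 1 higher, with a median of -0.53; under total reads 3 were lower and 2 higher. A 6 dpa level below both 3 and 14 dpa was found in 11 (68.8%), against 30.7% of all transcripts, but in only 7 (43.8%) with TMM against the 3 dpa library, against 25.4% of all. Hspa5, the chaperone BiP, had 132, 768, 415 and 587 scaled cpm at 0, 3, 6 and 14 dpa (-0.89, -0.92 to -0.85). Hsp90b1, the chaperone Grp94, had 1109 and 610.4 (-0.86), and hyou1, a co-chaperone of hspa5, had 414 and 229 (-0.86). Rcn3, a calcium-binding protein of the secretory pathway (-0.92), and cnpy2 (-1.20) were lower by similar or larger steps.

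Of 63 ribosomal protein transcripts 58 were lower at 6 dpa (42 under total reads) and 1 was higher, with a median of -0.97, which is also lower than the -0.41 of all transcripts with at least 10000 reads. For 61 of the 63 (96.8%) the 6 dpa level was below those of 3 and 14 dpa, and under the 4 other scalings the count was between 58 and 62. Summed, they had 67956, 68257, 35598 and 43722 scaled cpm at 0, 3, 6 and 14 dpa. Under TMM the level at 3 dpa was thus that of the uninjured limb, and the 2 later libraries were lower. Most of these transcripts were named from the study's table of genes lower at 6 dpa than at 0 dpa, and of the 4 that were not, 3 were lower and 1 higher. Among the largest steps were those of RL35A_PONAB (614 and 195 scaled cpm, -1.66, -1.70 to -1.61), rps25 (983 and 345, -1.51), rps19 (729 and 282, -1.37) and rpl36 (-1.34). The most abundant, rpl3 (RL3_RAT) and rpsa, gave -0.92 and -0.80. The higher one, RL39_RAT, had 0 reads at 3 dpa and 60 at 6 dpa and is taken up below.

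Subunits of translation elongation factor 1 were lower. Eef1a1l1, which brings aminoacyl-tRNA to the ribosome, had 12342, 11137, 5488 and 6030.3 scaled cpm at 0, 3, 6 and 14 dpa, a 2.03-fold difference (-1.02, -1.03 to -1.01). Its exchange factor subunits eef1b2 (-0.87), eef1db (-0.85) and eef1g (-0.72) were lower as well. Under total reads 1 of all 17 translation factors was lower, 6 were higher and the median was 0.03. Under TMM 7 were lower and 4 higher, beside 33.9% and 11.7% of all named transcripts, and the median was -0.26. The higher ones include another elongation factor, eef2l2 (2 and 89 reads, 6.03), described with the last group. The 20 genes of nucleolus and ribosome assembly had 2 lower, 1 higher and a median of -0.37, with the snoRNP protein GAR1 (GAR1_HUMAN, -0.71) and pwp2h (-0.64) lower and nop2 (-0.51), nop56 (-0.48), nop58 (-0.38) and gnl3 (-0.28) not called.

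Of 19 mitochondrial respiration transcripts 12 were lower (7 under total reads) and 1 higher, with a median of -0.83. The lower ones came from several complexes. The ATP synthase subunits AT5G2_HUMAN and ATP5J_BOVIN had 461 and 203 scaled cpm (-1.18, -1.23 to -1.13) and 99.5 and 40.6 (-1.29, -1.40 to -1.19). Cytochrome c1 (CY1_BOVIN) had 165 and 77.6 (-1.09), and the complex I subunits NDUB4_PONPY and NDUA1_MOUSE gave -1.35 and -1.10. The citric acid cycle enzyme mdh2 (289.7 and 143 scaled cpm, -1.02) and the outer membrane channel vdac2 (689 and 392, -0.82) were lower too. For 15 of the 19 (78.9%) the 6 dpa library was below 3 and 14 dpa, against 30.7% of all transcripts. Under total reads the count was 13 of 19, against 24.1% of all transcripts.

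The study predicted axolotl target sites of miR-21, a small regulatory RNA that represses its target mRNAs, in 3' untranslated regions that it derived from open reading frame predictions. Of 18 compared predicted targets 5 were lower and 2 higher, with a median of -0.36, beside 33.9% lower and 11.7% higher of all named transcripts. The list is one of predictions and was drawn up by the study, and its counts say nothing of the microRNA. The mature miR-21 as used by the study and the 6 predicted sites that hold a full complement to its seed are shown. Of these 6 members, tgfbr2, spry2 and efna5 were lower and pdcd4, mapk14 and tegt were not called. Capitals mark bases 2 to 8 of the microRNA (its seed) and the stretch of each site opposite to them.
miR-21: uAGCUUAUcagacugauguugac
tgfbr2: ttttctgttgttcggATAAGCTa
spry2: actctagccaaccacATAAGCTa
efna5: gccattatcagatcgATAAGCTg
pdcd4: cagtggtgtatttaaATAAGCTa
mapk14: aagagtgttggaacATAAGCTa
tegt: tctgctttctcaatgATAAGCTg

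Of these, tgfbr2 (-1.03) and spry2 (-1.11) are described above as receptor and inhibitor. Efna5, an ephrin that guides cells and axons, had 356 and 82 reads (-1.46, -1.82 to -1.11), but its component of 2 transcripts gave -0.28. The largest fall was that of dnajc18, a DnaJ co-chaperone, with 354 and 14 reads (-3.99, -4.89 to -3.24; component -0.74). The kinase rps6ka1 was lower (-0.91). The helicase eif4a1 (-0.49), tegt (-0.45), the stress kinase mapk14 (985 and 464 reads, -0.43) and pdcd4, an inhibitor of translation (809 and 427 reads, -0.26), were not called, and chka, choline kinase, was higher with 362 and 875 reads (1.93, 1.75 to 2.11; component 1.17).

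Across all named genes the largest differences were mostly shifts between transcripts of one component. The naming rule took 180 transcripts, of which 126 were lower, 27 higher and 27 between the cut-offs. Of the 27 higher ones, 19 belong to components with more than 1 transcript, against 47 of the 126 lower ones. When reads were summed over components, 16 of the 27 higher and 113 of the 126 lower genes were still past the cut-off in their direction, and 12 called genes changed sign, 9 of them higher and 3 lower.

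Hdlbpa, vigilin, an RNA-binding protein of the endoplasmic reticulum, was the clearest case. One transcript had 65, 132, 6009 and 5664 reads at 0, 3, 6 and 14 dpa (6.17, 5.92 to 6.43). The other had 16541, 37954, 16624 and 11968 reads, and together they gave -0.09. The first transcript was thus nearly unseen in the 2 earlier libraries and plentiful in the 2 later ones while the summed level hardly differed. VILL, a villin-like actin-binding protein, had 1665, 1278, 0 and 52 reads in one transcript, at least 269.8-fold lower at 6 dpa. This bound, like the others below, puts 3 reads in place of 0. The counting interval of the transcript reaches a smaller difference, -7.78 on the log2 scale. The other VILL transcript went from 5365 to 6370 reads, and the sum gave 0.60. For eif3m, a subunit of translation initiation factor 3, the reads were 908 and 2181 in one transcript and 4425 and 709 in the other, with a sum of -0.23. Smad3a, a mediator of Tgf-beta signals, had 212 and 0 reads in one transcript and 388 and 307 in the other, and the sum gave -0.31.

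Some differences held for the component. Slc40a1, ferroportin, the exporter of iron from cells, had a transcript with 925 reads at 6 dpa and 0 in the 3 other libraries, at least 487.0-fold higher, and its other transcript went from 918 to 1647 reads (1.50, 1.38 to 1.62). The sum gave 2.14. Atp2b1a, a plasma membrane calcium pump, had 442 and 2407 reads (3.10), and its component gave 0.83. Nmnat1, of NAD synthesis, had 739 and 28 reads (-4.06; component -0.98).

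For the transferrin receptor tfr1a, which takes up iron, the transcript that stands for the gene had 361 reads at 3 dpa and 0 at 6 dpa, at least 76.2-fold lower. Its most abundant transcript had 2944 and 2058 reads (0.14), and the component gave -0.59. Other large falls were ubac1 (at least 65.2-fold, component -0.35), eml1 (at least 59.3-fold, component -0.32), ctns (at least 28.7-fold, component 0.38) and etnk1 (at least 27.2-fold, component 0.44). Other large rises were rqcd1 (at least 116-fold, component -0.64), uhrf1bp1l (at least 80.0-fold, component 0.54) and FAR2 (18 and 175 reads, 3.93, component 0.36). By component these lay inside the cut-off except rqcd1, which was lower, against the direction of its transcript. The other rqcd1 transcript went from 1531 to 403 reads. In each of these genes 1 transcript gained or lost its reads, and in all but ubac1 another transcript carried most of the component at both stages.

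In the whole assembly, 6829 components had more than 1 compared transcript. In 1059 of them (15.5%) the counting intervals of 2 transcripts lay past the cut-off in opposite directions. The summed reads of these components lay between the cut-offs in 777, were higher in 118 and lower in 164, and their median was -0.07. Summed over components, 14405 of 64491 (22.3%) were higher and 19349 (30.0%) lower, so the split of calls was close to that of the transcripts. The assembler's transcripts can be splice forms, alleles or paralogs, and which of these applies was not tested.

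**Figure D4:**
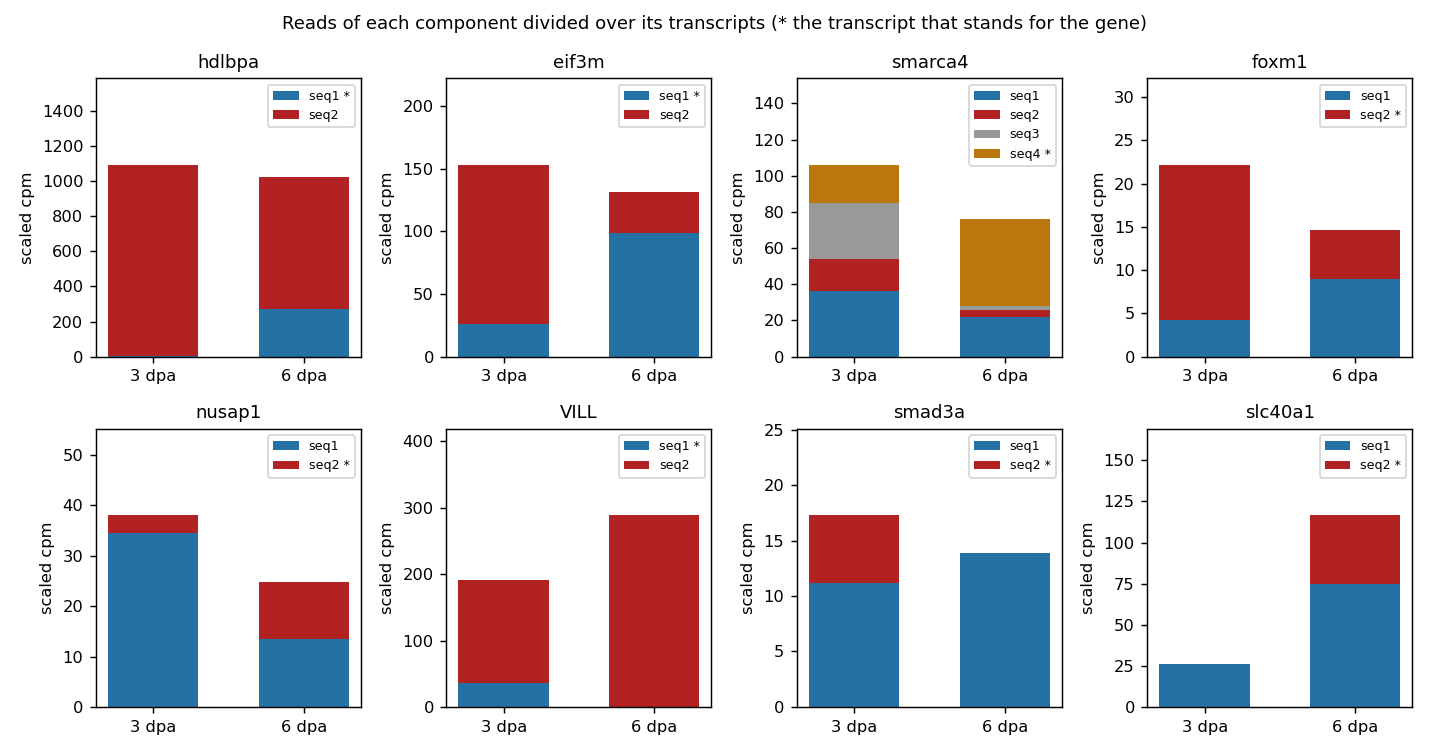
Scaled cpm at 3 and 6 dpa (y axis) of all transcripts of 8 components, stacked by transcript, with an asterisk on the transcript that stands for the gene; there is 1 library per bar. For hdlbpa the total is nearly the same at both stages (log2 fold change -0.09) although the marked transcript goes from 132 to 6009 reads, and for slc40a1 both the marked and the other transcript are higher at 6 dpa.

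A last group had reads at 0 and 6 dpa but hardly any at 3 and 14 dpa. It was singled out after its values were seen and holds 8 members of the lists and largest changes. Npm1a, nucleophosmin of the nucleolus, had 186, 4, 441 and 0 reads at 0, 3, 6 and 14 dpa, hmgb1b, a chromatin protein, had 29, 0, 113 and 0, and RL39_RAT had 30, 0, 60 and 2. The elongation factor eef2l2 had 51, 2, 89 and 0 reads, the growth factor mdka, midkine, 11, 0, 34 and 0, the chaperone pdia3 20, 0, 42 and 0, atp5a1 16, 0, 36 and 0, and eif4a2 896, 0, 20 and 0. Several are the only called rise of their list. Over all 90099 transcripts, 370 had at least 10 reads at 0 and at 6 dpa and at most 3 in the other 2 libraries, against 79 for 0 and 14 dpa, 350 for 6 and 14 dpa, 479 for 3 and 14 dpa, 704 for 0 and 3 dpa and 1160 for 3 and 6 dpa. The group of 8 allowed 4 reads at 3 dpa, so npm1a is not among the 370. Whether these reads come from the limb or from another source was not tested.

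The order of the gene lists was the same whatever the scaling, since a scaling moves every log2 fold change by the same amount. Upper quartile scaling moved values up by 0.11, the median of ratios by 0.04 and TMM with the 3 dpa library as its reference by 0.10, against 0.30 for total reads. Under total reads the medians of the leukocyte (0.21), nerve (0.22), erythrocyte (0.16) and translation factor (0.03) lists were above 0, and the ribosomal protein and skeletal muscle medians stayed below -0.58. The lower calls went from 5 to 3 among epidermal markers, from 3 to 2 among endothelial markers and from 2 to 0 in the nucleolus list, while the 15 lower skeletal muscle markers numbered 15 under total reads too.

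**Figure D5:**
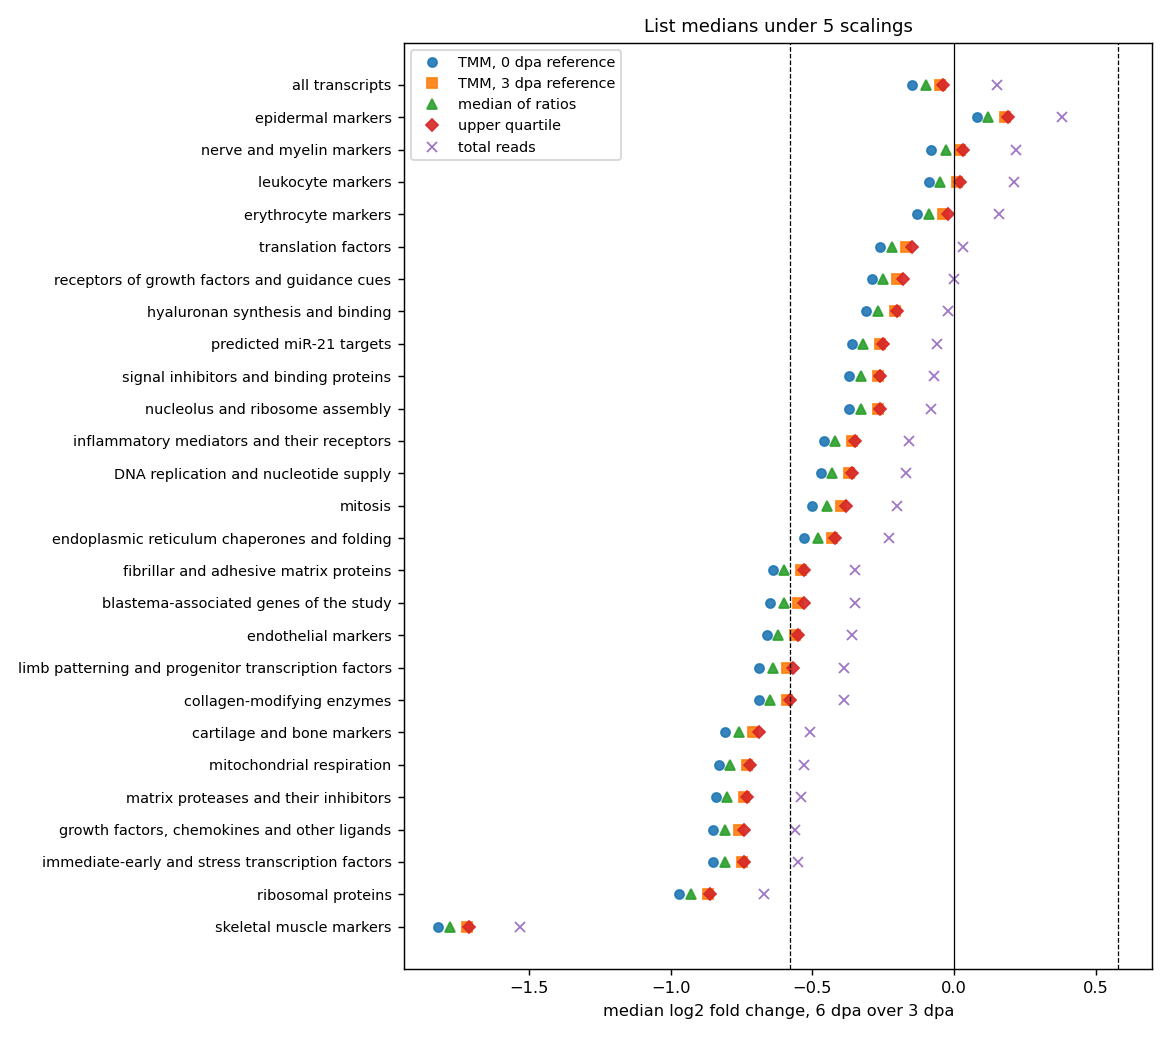
Median log2 fold change, 6 dpa over 3 dpa (x axis), of all transcripts and of the 26 gene lists under 5 scalings (symbols); dashed lines mark the cut-off of 0.58 and the solid line is 0. The median of all transcripts goes from -0.15 under TMM to 0.15 under total reads, and every list moves by the same step of 0.30.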

How the data were processed

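PolyA+ mRNA of axolotl forelimb pools was sequenced on an Illumina Genome Analyzer IIx. According to the paper, the authors trimmed reads with Trimmomatic, built an assembly of the 4 libraries with Trinity and obtained counts of reads for each transcript from RSEM; tool versions are not given in the sources used here. The deposited values are log2 values of whole reads (largest relative deviation 3.47e-09), although the table is named as log2 cpm. Reads were recovered as powers of 2. An entry of 0 (40414 entries) can mean 0 or 1 read and was taken as 0. Of 93299 lines, 3200 repeated a transcript and were dropped. RSEM divides reads among similar transcripts, so transcripts of a component and near-identical paralogs, such as those of ribosomal proteins and the 2 mmp13 genes, are uncertain as to their share.

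Scaling was TMM over the 4 libraries (0 dpa as the reference; 30% of log ratios and 5% of mean levels trimmed), with factors of 0.942 at 3 dpa and 1.157 at 6 dpa. A prior count of 0.125, scaled to library size, entered the log2 ratio. The floor is 3 reads per library, 0.0862 scaled cpm at 3 dpa and 0.136 at 6 dpa; with 0 reads in 1 library, a fold is a bound at 3 reads in it. Of the compared transcripts 12.7% were at or under the floor in 1 library. Both intervals and floors leave out everything but counting error. They treat each read as independent, which PCR copies are not, so the intervals can be too narrow even for that error. The calculation used Python 3.11.15, NumPy 2.4.6, pandas 2.3.3, SciPy 1.17.1 and matplotlib 3.10.9, and was tested on simulated data.

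Transcripts were named where the study's supplementary tables, held in part here, pair them with a gene (2371 names, 4069 transcripts); a gene is represented by the paired transcript whose mean cpm over all 4 libraries is highest. Named are all blastema-associated genes, up to 6 members of each other list with the largest change among those with at least 50 reads, the 2 with the most reads, and the 10 largest rises and falls among genes with at least 100 reads; other genes named were chosen after their values were seen. The members and lists were chosen with earlier results of these data known. The alternatives were other scalings, priors, filters, a cut-off of 1, entries of 0 read as 1, and sums over components or paired transcripts. The small RNA table, the PCR values and the authors' own comparisons were not used. Some genes that the naming rule took are not reported here.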

Additional observations from a re-analysis of the deposited data

How the results depend on the processing

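No paired analysis was possible because each stage is 1 library. The median of all transcripts (-0.15) became 0.15 with total reads, -0.04 with upper quartile scaling, -0.10 with the median of ratios, -0.05 with TMM against the 3 dpa library, -0.13 with a prior count of 1, -0.08 with no filter, -0.03 with at least 10 reads in each library, -0.06 with entries of 0 read as 1 and -0.12 with component sums. The numbers higher and lower were 10603 and 11693 with at least 10 reads in each library and 11236 and 16306 at a cut-off of 1. A filter of at least 100 reads over both libraries, chosen after seeing the data, gave 4874 and 8868 and a median of -0.19. Components with opposite directions numbered 578 at a cut-off of 1. Of 2143 values of named genes under these settings, 1724 stayed within the counting interval of the main value, 404 moved past it (126 of 180 under total reads), and 15 turned the direction of a called gene. The 1724 include values that could not move, since a cut-off or a filter does not alter a fold change. These were 180 with a cut-off of 1, 180 with no filter and 163 with at least 10 reads in each library. Genes near 0 that were not called can also cross 0, since total reads add 0.30 to every value. The turned calls with component sums were hmmr -0.19, nusap1 -0.63, tfap2a -0.02, plxna3 -0.32, igfbp5b -0.34, eif3m -0.23, smarca4 -0.48, VILL 0.60, ctns 0.38, etnk1 0.44, rqcd1 -0.64 and hdlbpa -0.09. With sums over paired transcripts they were nusap1 -0.63, smarca4 -0.48 and cxcl12 1.17. The reads of other transcripts of the component enter these sums. The depth at 6 dpa limits genes under about 100 reads, whose intervals often span the cut-off.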
